A study of Mus musculus with 18 samples.

Results

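Basophils grown from the bone marrow of TTP-KO mice were set against basophils grown from WT mice, with neither having met antigen. The comparison took 6 of the 18 libraries of the series, 3 TTP-KO and 3 WT, selected by their genotype label and by the label of control ovalbumin (OVA). Of 56413 genes in the deposited table, 14076 passed a filter on low counts across all 6 groups of the series and were tested.

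Both groups were treated alike apart from the genotype. Bone marrow cells were kept for 7 days in interleukin-3 at 0.3 ng/mL, and on day 6 they received IgE specific for the hapten TNP at 1 µg/mL. Cells bearing CD49b, an integrin chain on the basophil surface, were then pulled out on magnetic beads, and samples of 50000 cells were given control OVA at 10 ng/mL for 2 h before polyadenylated RNA was sequenced. The other 12 libraries had 3 for each genotype after TNP-coupled OVA (TNP-OVA) at the same dose for 2 h or 4 h, and they serve below to follow the genes found in control cells. The altered allele, the strain and the age of the mice are absent from the sources used here. Nor do the labels tell whether replicates were separate mice or separate cultures, so each p-value measures the spread between these libraries, which could be technical. In bulk RNA, fewer cells of a kind and less RNA in each cell cannot be told apart.

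Basophils are granulocytes that bind IgE through its high-affinity receptor and, when antigen crosslinks that IgE, release histamine, leukotrienes and type 2 cytokines. TTP, tristetraprolin, is the RNA-binding protein encoded by Zfp36. It binds AU-rich elements in the 3′ UTR of short-lived messenger RNAs, among them those of tumour necrosis factor and many other cytokines, and recruits the enzymes that remove the poly(A) tail, so that the RNA decays. Mice that lack it are known for a systemic inflammatory syndrome.

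Library totals ran from 6051800 to 8935800 estimated counts in TTP-KO and from 5516600 to 9446100 in WT. All 16 basophil markers listed for the check were measured, and together they held 31495 to 33115 CPM (counts scaled to a common library size) in TTP-KO libraries and 31422 to 32915 CPM in WT libraries. They included Mcpt8, the basophil protease, at 5152 ± 156 CPM in TTP-KO and 5372 ± 272 CPM in WT (SD, n = 3 each), so both groups carried their labelled identity. The first principal component of the 6 libraries held 26% of the variance and placed the 3 TTP-KO libraries on one side of the 3 WT libraries. No pair of libraries within a genotype were copies of each other, with a chi-square per degree of freedom of 3.05 to 7.34 over 6 pairs.

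The targeted gene was read in each library. Zfp36 stood at 219, 228 and 225 CPM in the TTP-KO libraries, against 224, 239 and 247 CPM in the WT libraries. The ranges overlapped, and the log2 fold change, here and throughout TTP-KO over WT, was -0.08 ± 0.05 (SE, edgeR adjusted p = 0.601). In the TNP-OVA libraries Zfp36 averaged 564 CPM in TTP-KO and 448 CPM in WT at 2 h (0.33 ± 0.05, adjusted p = 0.000316), and 324 CPM in TTP-KO and 295 CPM in WT at 4 h (0.14 ± 0.05, adjusted p = 0.151). Since the allele is not described, RNA of this gene checks nothing about the genotype labels, and each direction below rests on them. Its relatives Zfp36l1 and Zfp36l2, which bind the same elements, stood at -0.18 ± 0.06 (adjusted p = 0.0961) and -0.07 ± 0.04 (adjusted p = 0.555).

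In control cells 232 genes differed between genotypes at an adjusted p under 0.05 (edgeR's quasi-likelihood test with Benjamini-Hochberg adjustment), 1.65% of those tested. Of these, 58 were higher in TTP-KO, 0.412% of genes tested, and 174 were lower, 1.24%. Most differences were small: 156 were under 1.5-fold, 50 were between 1.5-fold and 2-fold, and 26 reached 2-fold, of which 4 were higher and 22 lower. The median log2 fold change was 0.46 for the genes that were higher and -0.37 for those that were lower. In 229 of the 232 the 3 TTP-KO libraries did not overlap the 3 WT libraries, against 17.5% of all genes tested (8.43% with TTP-KO above WT and 9.06% with TTP-KO below). The calls came from these same libraries, so this separation largely follows from the selection and adds no support. Genes named below by size of change had to show no overlap, so for them it is only a description. Where a call described below ended with a control library left out, the highest adjusted p of the 6 such fits is given beside it, with that library. Leaving out TTP-KO control replicate 3 lowered the number of calls to 145, and estimating the spread from the 6 control libraries alone lowered it to 149.

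**Figure D1:**
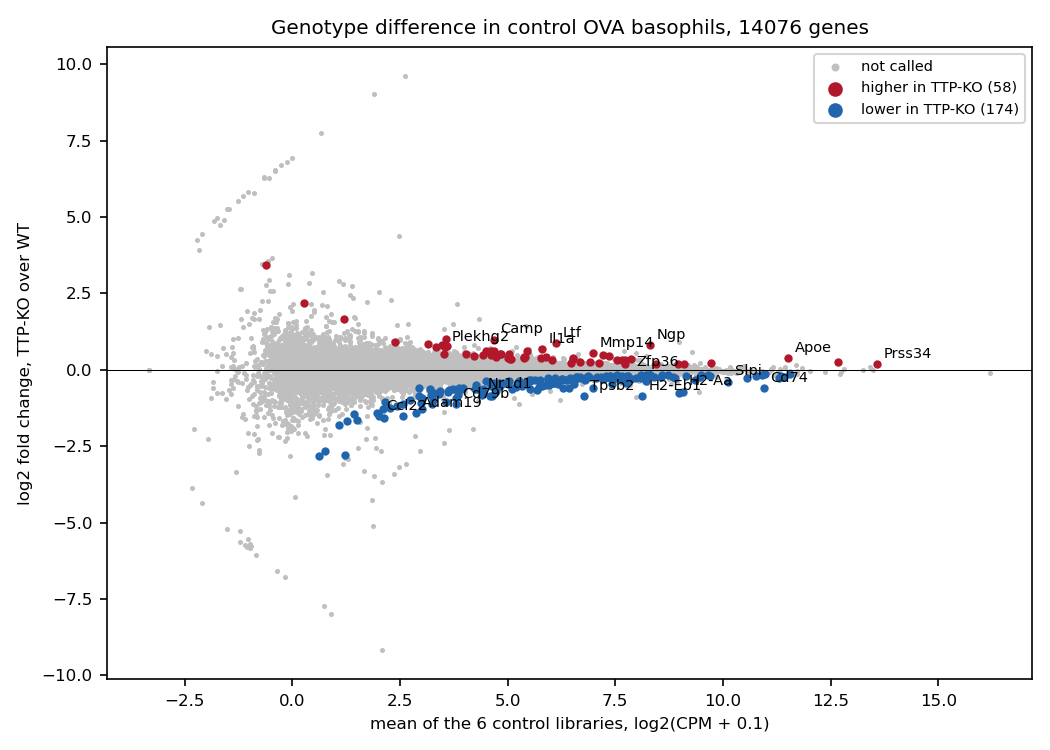
Log2 fold change of TTP-KO over WT in control OVA basophils (vertical axis) against the mean level over the 6 control libraries as log2(CPM + 0.1) (horizontal axis), 1 point per gene. Red points are the 58 genes higher in TTP-KO, blue points the 174 genes lower, and grey points the genes that did not pass. Class II genes such as Cd74 and H2-Eb1 lie low on the right, and Camp, Ltf and Ngp lie above 0.

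The main chains of class II antigen presentation were lower in TTP-KO basophils. Class II molecules carry peptides from swallowed protein to the cell surface for CD4+ T cells, and cells that make them share promoter boxes read by a common set of factors under the coactivator CIITA. H2-Eb1, a class II beta chain, had 191, 197 and 203 CPM in the TTP-KO libraries, against 369, 355 and 357 CPM in the WT libraries. H2-Ab1, the other beta chain measured at this level, had 369, 365 and 396 CPM in TTP-KO, against 648, 619 and 627 CPM in WT. H2-Aa, an alpha chain, had 401, 401 and 414 CPM in TTP-KO, against 696, 649 and 646 CPM in WT. Each of these genes had its 3 TTP-KO values close together and far under the lowest WT value. Cd74, the invariant chain that guides class II molecules through the cell, had 1562, 1563 and 1604 CPM in TTP-KO, against 2388, 2325 and 2408 CPM in WT. The log2 fold changes were -0.87 ± 0.05 for H2-Eb1 (SE, adjusted p = 1.39e-12), -0.75 ± 0.04 for H2-Ab1 (adjusted p = 1.87e-12), -0.71 ± 0.04 for H2-Aa (adjusted p = 2.02e-12) and -0.59 ± 0.04 for Cd74 (adjusted p = 7.45e-12). They remained past the threshold without each control library in turn.

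Of the 15 genes listed for this pathway, 6 were lower, against 1.24% of all genes tested, and 0 higher, and 13 had a negative log2 fold change. The list's median was -0.42, against -0.000995 over all genes tested. The remaining calls were H2-DMb1 at -0.42 ± 0.08 (adjusted p = 0.00418, and 0.0593 with TTP-KO control replicate 3 left out) and H2-DMa at -0.34 ± 0.08 (adjusted p = 0.0159, and 0.0865 with WT control replicate 3 left out), the subunits that load peptide onto class II. Ciita, the coactivator itself, had 13.7, 13.8 and 12.5 CPM in TTP-KO, against 16.9, 18.3 and 19.7 CPM in WT, which did not overlap but did not pass either (-0.46 ± 0.13, adjusted p = 0.0626). Ctss, the protease that trims the invariant chain, stood at -0.05 (adjusted p = 0.659). H2-Oa, a modulator of peptide loading found mainly in B cells, also stood at -0.05 (adjusted p = 0.863), and Rfx5, Rfxank and Rfxap, the box-binding factors, lay between -0.12 and 0.05, none past the threshold. The summed level of the 15 genes was 3784 to 3876 CPM in TTP-KO and 5322 to 5478 CPM in WT. The H2 genes resemble each other in sequence, so how reads were shared among them is uncertain.

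The promoters of H2-Eb1 and H2-Aa are shown because both genes fell together and both windows hold CTGATTGG, the Y box bound by NF-Y in class II promoters (in capitals, searched on both strands). The sequences are RefSeq's for GRCm38.p6, from 250 bases before to 50 after the annotated start, read along the gene's strand.
H2-Eb1: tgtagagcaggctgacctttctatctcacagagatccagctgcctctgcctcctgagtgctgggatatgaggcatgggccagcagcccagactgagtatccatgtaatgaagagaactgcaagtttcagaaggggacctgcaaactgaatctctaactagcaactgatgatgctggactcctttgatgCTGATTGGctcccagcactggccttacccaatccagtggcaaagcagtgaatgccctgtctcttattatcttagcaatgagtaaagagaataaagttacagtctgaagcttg
H2-Aa: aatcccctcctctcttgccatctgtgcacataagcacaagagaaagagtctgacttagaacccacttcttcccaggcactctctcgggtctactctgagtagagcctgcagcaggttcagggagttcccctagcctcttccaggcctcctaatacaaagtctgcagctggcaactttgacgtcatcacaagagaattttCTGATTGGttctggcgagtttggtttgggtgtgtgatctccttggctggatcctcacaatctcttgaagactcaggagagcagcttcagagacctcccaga
The H2-Eb1 window is chr17:34305617-34305916 on the plus strand, with the box at position -62 from the start. The H2-Aa window is chr17:34287774-34288073 on the minus strand, with the box at -51. The same letters stand in 4.31% of 27025 promoter windows of that length, and also in those of H2-Eb2 and H2-Oa, but not in those of H2-DMa and H2-DMb1. The windows of H2-Ab1, Cd74, Ciita and Rfxap were not searched.

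Several B cell genes were lower as well. Cd79b and Cd79a encode the signalling chains of the B cell receptor. Cd79b had 6.86, 11.2 and 7.71 CPM in TTP-KO, against 18.4, 18.1 and 20.2 CPM in WT (-1.13 ± 0.17, adjusted p = 0.000179). Cd79a had 7.45, 7.51 and 8.01 CPM in TTP-KO, against 16.4, 16.4 and 14.7 CPM in WT (-1.04 ± 0.16, adjusted p = 0.00022). Neither gene overlapped between genotypes. Ebf1, the transcription factor that starts the B lineage, averaged 0.429 ± 0.0252 CPM in TTP-KO and 2.78 ± 0.598 CPM in WT (SD, n = 3 each; -2.67 ± 0.48, adjusted p = 0.00167). Ly6d, a surface protein of early B cells that is not in the list, gave -1.13 ± 0.17 (adjusted p = 0.00023). Of 19 B cell markers tested 8 were lower, against 1.24% of all genes tested, and 0 higher, with a median of -1.04. Ms4a1, Fcmr, Spib and Ighd were also among the 8. The calls of Spib (adjusted p = 0.0263) and Ighd (adjusted p = 0.028) ended when single libraries were left out, with an adjusted p of 0.133 for Spib with TTP-KO control replicate 1 left out and of 0.162 for Ighd with TTP-KO control replicate 2 left out.

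The immunoglobulin genes Ighm and Igkc stood at -0.49 ± 0.22 (adjusted p = 0.356) and -0.98 ± 0.41 (adjusted p = 0.322). Summed over the 19 markers, B cell transcripts held 109.7 to 185 CPM in TTP-KO libraries and 246 to 277 CPM in WT libraries, so the groups did not overlap. The largest part of that sum in each library was Igkc, which did not pass. It had 333, 706 and 239 estimated counts in TTP-KO, against 957, 497 and 1059 in WT. Dendritic cells and macrophages are also known for class II. Macrophage markers are given below, and dendritic cell markers held 116 to 121 CPM in TTP-KO and 112 to 122 CPM in WT over 8 tested members. Most of that sum was Bst2, Itgax and Tcf4, so it says little about the members at low levels. Of the 8, 1 was lower, against 1.24% of all genes tested, and the rest did not pass. The lower gene was Ccr7, the receptor that leads dendritic cells and lymphocytes to lymph nodes. Ccr7 had 0.292, 0.336 and 0.401 CPM in TTP-KO, against 2.89, 1.66 and 3.01 CPM in WT (-2.83 ± 0.54, adjusted p = 0.00319). The dendritic markers Flt3, Xcr1, Cd209a and Siglech were under the filter. The part that B cells, dendritic cells or macrophages had in the class II result was not tested. Of 12 T cell markers, 9 were under the filter, among them Cd3e, Cd3d and Cd3g, and the 3 tested did not pass.

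**Figure D2:**
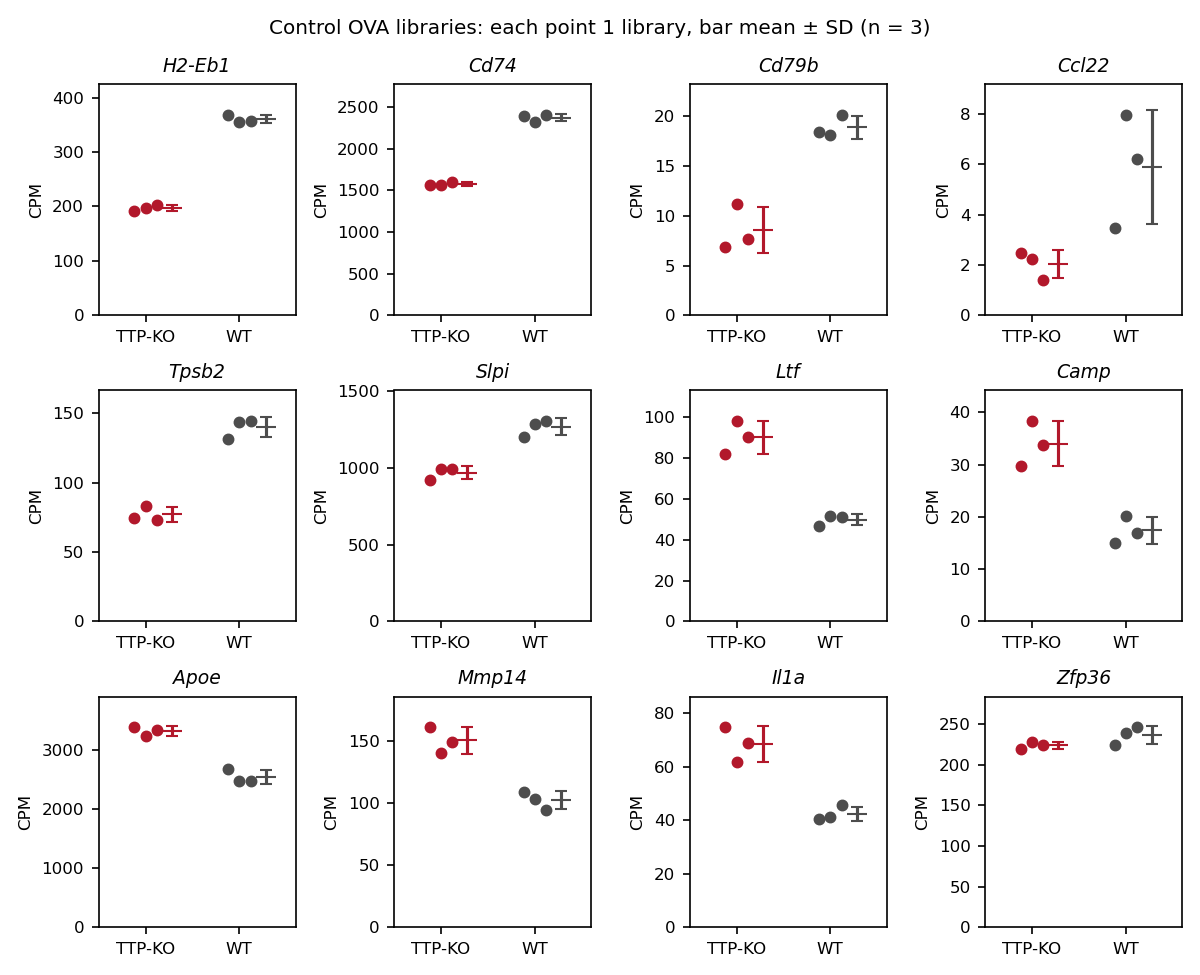
CPM of 12 genes in each control OVA library (vertical axes, starting at 0), TTP-KO in red on the left and WT in grey on the right, with each group's mean ± SD beside its 3 points. The genotypes do not overlap for H2-Eb1, Cd74, Cd79b, Ccl22, Tpsb2, Slpi, Ltf, Camp, Apoe, Mmp14 and Il1a, and they overlap for Zfp36.

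Several neutrophil granule genes were higher in TTP-KO. These genes encode antimicrobial proteins that granulocyte precursors pack into granules in the marrow. Ltf, lactoferrin, an iron-binding protein of secondary granules, had 81.9, 98.2 and 90.2 CPM in TTP-KO, against 46.6, 51.5 and 50.8 CPM in WT (0.86 ± 0.08, adjusted p = 1.87e-07). Camp, the cathelicidin, had 29.8, 38.4 and 33.8 CPM in TTP-KO, against 15, 20.3 and 17.0 CPM in WT (0.99 ± 0.13, adjusted p = 2.48e-05). Mpo, myeloperoxidase of primary granules, had 166, 158 and 191 CPM in TTP-KO, against 117, 121 and 130.3 CPM in WT (0.49 ± 0.07, adjusted p = 4.86e-05). In these genes each TTP-KO library lay above each WT library. Ngp gave 0.80 ± 0.11 (adjusted p = 0.00168), Mmp9, gelatinase B, 0.53 ± 0.10 (adjusted p = 0.00418), Chil3, a chitinase-like protein, 0.44 ± 0.08 (adjusted p = 0.00441) and Lcn2, which binds bacterial siderophores, 0.33 ± 0.06 (adjusted p = 0.00194).

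Of the 24 neutrophil markers, all tested, 7 were higher, against 0.412% of all genes tested, and 0 lower. Their median was 0.35, and 20 had a positive log2 fold change. The exceptions in sign were Ly6g, the surface antigen of mature neutrophils, at 1.77 ± 0.794 CPM in TTP-KO and 3.38 ± 0.286 CPM in WT (-0.90 ± 0.40, adjusted p = 0.317), Padi4 (-0.19, adjusted p = 0.0658), Pglyrp1 (-0.10, adjusted p = 0.444) and Cxcr2 (-0.07, adjusted p = 0.565). S100a8 and S100a9, the calprotectin subunits, did not overlap between genotypes and did not pass, at 0.54 ± 0.17 (adjusted p = 0.151) and 0.58 ± 0.15 (adjusted p = 0.0838). The 24 markers summed to 3721 to 4176 CPM in TTP-KO and 3147 to 3298 CPM in WT. Progenitor markers summed to 138 to 143 CPM in TTP-KO and 124 to 131 CPM in WT over 9 tested, none of which passed. The part of other cells in these values was not tested.

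Among monocyte and macrophage markers, 4 were higher and 2 lower of 18 tested, against 0.412% and 1.24% of all genes tested, with a median of 0.08. Apoe, apolipoprotein E, a lipid carrier that macrophages secrete, had 3387, 3227 and 3335 CPM in TTP-KO, against 2670.1, 2471 and 2463 CPM in WT (0.39 ± 0.04, adjusted p = 1.45e-07). Lyz2, the myeloid lysozyme, had 7138, 7109.8 and 6883 CPM in TTP-KO, against 5831, 5959.6 and 5995 CPM in WT (0.25 ± 0.03, adjusted p = 7.07e-05). Both genes were higher in each TTP-KO library than in any WT library. C1qa, a chain of complement C1q, gave 0.31 ± 0.06 (adjusted p = 0.00403). Ccr2, the receptor that brings monocytes out of the marrow, went the other way, with 70.5, 79.2 and 84.4 CPM in TTP-KO, against 114, 108 and 99.6 CPM in WT (-0.45 ± 0.07, adjusted p = 0.000186). Cd14, a lipopolysaccharide coreceptor, was also lower (-0.21 ± 0.05, adjusted p = 0.0413, and 0.20 with TTP-KO control replicate 1 left out). Csf1r, the macrophage growth factor receptor, stood at 0.04 ± 0.05 (adjusted p = 0.775). The 18 genes summed to 12631 to 12875 CPM in TTP-KO and 10681 to 10816 CPM in WT, most of it Lyz2 and Apoe.

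Further genes known from macrophages and osteoclasts, grouped here after their values were seen, were among those taken by the naming rule. Plau, urokinase, had 55.6, 52.7 and 50.1 CPM in TTP-KO, against 30.1, 36.9 and 35.5 CPM in WT (0.63 ± 0.10, adjusted p = 0.000201). Acp5, the tartrate-resistant phosphatase, gave 0.36 ± 0.06 (adjusted p = 0.000363), Mpeg1, a pore-forming protein, 0.22 ± 0.05 (adjusted p = 0.00808), and Selenop, the plasma selenium carrier, 0.20 ± 0.04 (adjusted p = 0.00488). All 4 were higher in TTP-KO without overlap. Dcstamp, which drives fusion of osteoclast precursors, was lower, with 2.63, 2.35 and 2.40 CPM in TTP-KO, against 5.55, 5.15 and 7.08 CPM in WT (-1.28 ± 0.24, adjusted p = 0.00252), and so was Mmp12, the macrophage elastase (-0.43 ± 0.07, adjusted p = 0.000436). Ctsk, the osteoclast protease cathepsin K, had 5.11, 5.94 and 5.21 CPM in TTP-KO, against 12.1, 12.0 and 7.66 CPM in WT (-0.95 ± 0.22, adjusted p = 0.0165, and 0.0972 with WT control replicate 1 left out). These genes thus stood on both sides.

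Basophil genes and granule contents differed by small amounts. Prss34, the basophil tryptase also called mMCP-11, had 12613, 12888 and 13453 CPM in TTP-KO, against 11235, 11556 and 11719 CPM in WT (0.17 ± 0.03, adjusted p = 0.000625). Cyp11a1, a steroid-making enzyme of the mitochondrion, had 1528, 1626 and 1671 CPM in TTP-KO, against 1828, 1853 and 1932 CPM in WT (-0.22 ± 0.04, adjusted p = 0.000654). Hdc, which makes histamine, averaged 1802 ± 38.7 CPM in TTP-KO and 2042 ± 84.2 CPM in WT (-0.18 ± 0.04, adjusted p = 0.00818, and 0.0688 with WT control replicate 3 left out). None of these 3 genes overlapped between the genotypes. Of 16 basophil markers 1 was higher and 3 lower, against 0.412% and 1.24% of all genes tested. The last was Csf2rb2, whose call ended when the spread came from the 6 control libraries alone (-0.28 ± 0.05, adjusted p = 0.0102, against 0.0976) and with TTP-KO control replicate 3 left out (0.0611). Csf2rb, the common beta chain through which interleukin-3, interleukin-5 and GM-CSF signal, had 2336, 2403 and 2394 CPM in TTP-KO, against 2666, 2839.7 and 2821 CPM in WT (-0.22 ± 0.04, adjusted p = 0.000625). Csf2rb and Csf2rb2 are near copies, so reads could have been divided between them in either way. Of 27 genes of the IgE receptor and its proximal signalling, 0 passed by edgeR's test, against 1.65% of all genes tested, with a median of -0.02.

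The mast cell proteases Tpsb2 and Cma1 were lower. Tpsb2, the mast cell tryptase, had 74.6, 83.4 and 73.3 CPM in TTP-KO, against 131, 143 and 145 CPM in WT (-0.86 ± 0.06, adjusted p = 6.87e-11). Cma1, the mast cell chymase, had 29.6, 24.8 and 26.4 CPM in TTP-KO, against 44.4, 35.9 and 42.9 CPM in WT (-0.62 ± 0.12, adjusted p = 0.00418). Neither overlapped. Of the 10 mast cell markers tested these 2 were lower, against 1.24% of all genes tested, and 0 higher. In sign 9 were negative, with a median of -0.54. Kit, the stem cell factor receptor that mast cells keep, stood at 19.0 CPM in TTP-KO and 25.8 CPM in WT (-0.45, adjusted p = 0.0664), and Cpa3, a carboxypeptidase that basophils also make, at 1202 ± 8.91 CPM in TTP-KO and 1243 ± 23.1 CPM in WT (-0.05 ± 0.03, adjusted p = 0.633). Mrgprb1 was at 0 in all control libraries, and Mcpt4 and Mrgprb2 were under the filter. The 10 genes summed to 3049 to 3187 CPM in TTP-KO and 3239 to 3361 CPM in WT, most of it Cpa3 and Gata2, which is also among the basophil markers. Whether mast cells in the cultures had a part in this was not tested. Srgn, serglycin, the proteoglycan core of granules, was lower by a little (-0.14 ± 0.03, adjusted p = 0.00367), and Slpi, an inhibitor of neutrophil elastase, had 919.9, 994 and 989.8 CPM in TTP-KO, against 1202, 1286 and 1306 CPM in WT (-0.39 ± 0.04, adjusted p = 1.22e-06).

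**Figure D3:**
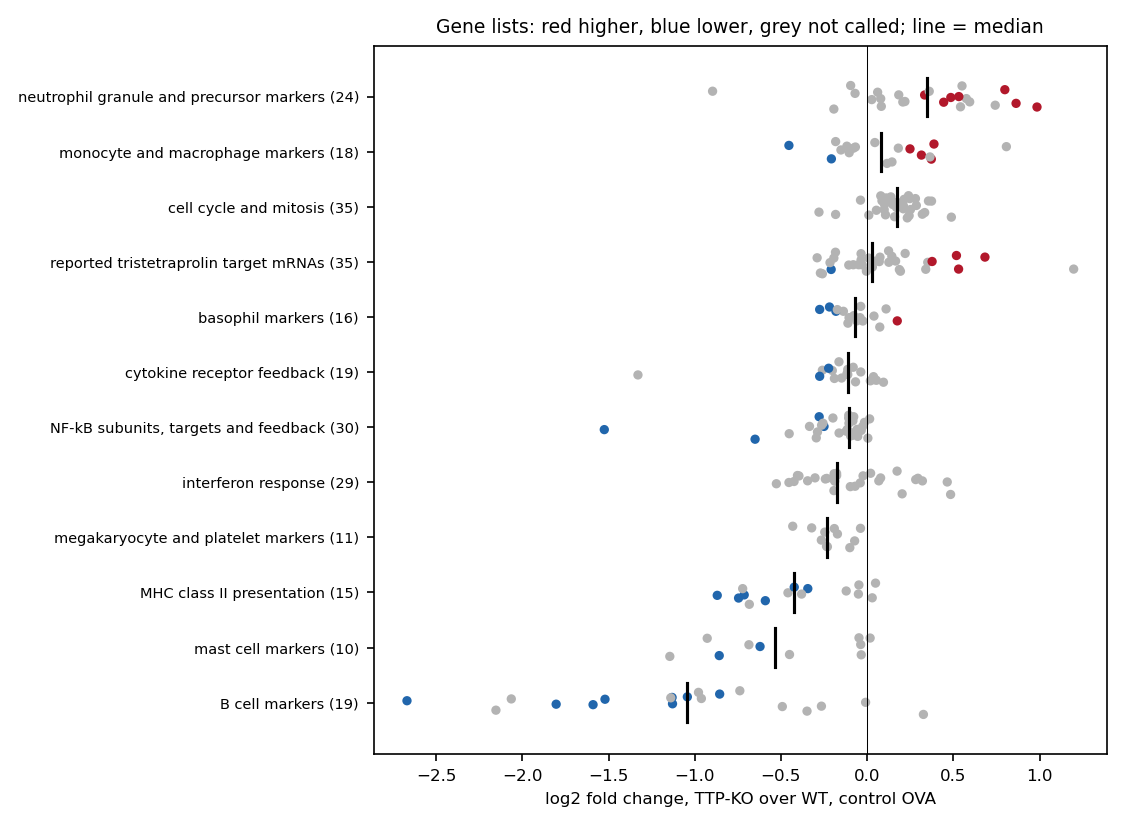
Log2 fold changes of TTP-KO over WT in control OVA basophils (horizontal axis) for the tested members of 12 gene lists (rows, with the number tested in brackets), 1 point per gene, red where higher, blue where lower and grey where the gene did not pass. Black bars mark the medians, from 0.35 for neutrophil markers to -1.04 for B cell markers.

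Some of the messenger RNAs reported as targets of tristetraprolin passed the test in these cells, and most did not. Il1a, the alarm cytokine interleukin-1 alpha, had 74.9, 61.5 and 68.9 CPM in TTP-KO, against 40.5, 41.2 and 45.5 CPM in WT (0.68 ± 0.08, adjusted p = 3.05e-06). Maff, a small Maf transcription factor, had 40.3, 40.1 and 34.7 CPM in TTP-KO, against 28.9, 22.9 and 27.6 CPM in WT (0.52 ± 0.09, adjusted p = 0.000625). Both were higher in TTP-KO without overlap. Cxcl1, a neutrophil-attracting chemokine, was higher by 0.53 ± 0.14 (adjusted p = 0.0412, and 0.199 with TTP-KO control replicate 3 left out). Bcl2, which blocks apoptosis, was higher by 0.38 ± 0.08 (adjusted p = 0.0149, and 0.105 with TTP-KO control replicate 1 left out). Ier3, an immediate early gene, was lower (-0.21 ± 0.05, adjusted p = 0.0335, and 0.20 with TTP-KO control replicate 1 left out). Of 35 reported targets tested, 4 were higher and 1 lower, against 0.412% and 1.24% of all genes tested, and the median was 0.03. Tnf, the best-known target, had 211, 199.7 and 227 CPM in TTP-KO, against 184, 176 and 199 CPM in WT, which did not overlap but did not pass (0.19 ± 0.06, adjusted p = 0.0863). Csf2, GM-CSF, averaged 1.56 ± 0.37 CPM in TTP-KO and 0.69 ± 0.199 CPM in WT (SD, n = 3 each; adjusted p = 0.086). Il2 was at 0 in all control libraries, and Il23a and Ifng were under the filter. Of 16 AU-rich element binders 0 passed. Of 28 deadenylation and decay factors 2 were lower and 0 higher, against 1.24% and 0.412% of all genes tested. These were Btg1 and Btg2, adaptors of the deadenylase complex, at -0.25 ± 0.04 (adjusted p = 0.000752) and -0.28 ± 0.06 (adjusted p = 0.00418).

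The stretch of 3′ UTR with most copies of the core element, written in DNA letters as TATTTAT (in capitals), is shown for the 5 called targets and for Tnf and Csf2, which carry more copies and did not pass. Each window is 30 bases of the longest annotated 3′ UTR on GRCm38 (GENCODE), read along the transcript.
Il1a: tatctatgTATTTATaaataTATTTATgat
Maff: cacactctTATTTATtgcacgaatctaagt
Cxcl1: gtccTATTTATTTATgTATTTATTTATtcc
Bcl2: aaaagattTATTTATttaagacagttccac
Ier3: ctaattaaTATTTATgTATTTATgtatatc
Tnf: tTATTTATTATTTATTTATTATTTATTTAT
Csf2: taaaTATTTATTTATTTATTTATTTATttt
Over the whole 3′ UTR the core element stood 3 times in Il1a, 2 times in Maff, 6 times in Cxcl1, 2 times in Bcl2, 4 times in Ier3, 8 times in Tnf and 9 times in Csf2, copies that overlap counted each. These genes were picked by their calls or by their copies, so no order between copies and difference was read from them.

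Among all called genes with an annotated 3′ UTR, the longer element TTATTTATT stood in 10 of 53 that were higher (18.9%), in 12 of 162 that were lower (7.41%) and in 942 of 11562 genes tested (8.15%). The core TATTTAT stood in 28.3% of the higher genes, 32.1% of the lower genes and 30.1% of all. Median 3′ UTR lengths were 783 bases for the higher genes, 1234 for the lower genes and 1152 for all, and in that order the longer element stood 0.207, 0.0644 and 0.0676 times per kilobase and the core 0.397, 0.33 and 0.289 times. By share of genes the longer element was more common among the higher genes and the core was not, while per kilobase both were more frequent there. The 206 genes with 2 or more copies of the longer element had a median log2 fold change of 0.00223. Of them 3 were called higher and 2 lower, 2.43% in all, against 1.65% of all genes tested. Only the sense strand was searched, and the counts are a description of the annotation.

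Among chemokines, Ccl22, Ccl5 and Ccl9 were lower and Cxcl1 was higher. Ccl22, a ligand of CCR4 made by dendritic cells and macrophages, had 2.48, 2.24 and 1.40 CPM in TTP-KO, against 3.47, 7.97 and 6.21 CPM in WT (-1.52 ± 0.28, adjusted p = 0.00183). Ccl5, a chemokine that attracts T cells and monocytes, had 103, 96.5 and 102 CPM in TTP-KO, against 169, 153 and 130 CPM in WT (-0.58 ± 0.08, adjusted p = 0.00029). Ccl9, a CCR1 ligand, averaged 2392 ± 52.7 CPM in TTP-KO and 2773 ± 66.8 CPM in WT (-0.21 ± 0.03, adjusted p = 0.000236). Each of these was lower in every TTP-KO library than in every WT library, though the WT libraries were spread widely for Ccl22. Of 27 chemokine and receptor genes 5 were lower, counting Ccr2 and Ccr7, and 1 was higher, against 1.24% and 0.412% of all genes tested. The median was -0.05 over the list. In 30 genes of NF-kB and its feedback 28 had a negative log2 fold change, with a median of -0.11, against -0.000995 over all genes tested. Of the 30, 4 were lower, against 1.24% of all genes tested, and 0 higher. Cd83, a surface protein that stabilises class II molecules, led them after Ccl22, with 37.1, 44.9 and 38.5 CPM in TTP-KO, against 64.3, 59.5 and 65.4 CPM in WT (-0.65 ± 0.08, adjusted p = 1.31e-05). Icam1, the ligand of LFA-1, gave -0.28 ± 0.06 (adjusted p = 0.0067, and 0.0503 with WT control replicate 3 left out) and Tnfaip3, the A20 feedback protein, -0.25 ± 0.06 (adjusted p = 0.0399, and 0.18 with TTP-KO control replicate 3 left out).

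Other large decreases belonged to none of these groups. Adam19, a membrane metalloprotease, had 3.80, 3.36 and 4.51 CPM in TTP-KO, against 8.21, 13.5 and 9.80 CPM in WT (-1.41 ± 0.24, adjusted p = 0.000838). Npy, neuropeptide Y, had 5.40, 3.36 and 5.11 CPM in TTP-KO, against 10.4, 13.1 and 10.4 CPM in WT (-1.28 ± 0.21, adjusted p = 0.000625). Both were named by size of change, a rule that required no overlap between the genotypes. Lilrb4a and Lilrb4b, inhibitory receptors with nearly the same sequence, gave -0.24 ± 0.04 (adjusted p = 0.00022) and -0.27 ± 0.03 (adjusted p = 1.16e-05), and reads of either could have gone to the other. Il7r, the interleukin-7 receptor, gave -0.31 ± 0.05 (adjusted p = 0.00103), Klf6, an immediate early transcription factor, -0.29 ± 0.05 (adjusted p = 0.00033), and Slc2a3, a glucose transporter, -0.34 ± 0.05 (adjusted p = 0.00029).

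Genes of the circadian clock were listed after Nr1d1 and Ciart had been seen among the calls. Nr1d1, the clock repressor REV-ERB alpha, had 15.6, 16.5 and 13.7 CPM in TTP-KO, against 28.1, 24.7 and 27.4 CPM in WT (-0.82 ± 0.12, adjusted p = 0.00022). Ciart, another clock repressor, had 6.86, 9.75 and 13.7 CPM in TTP-KO, against 16.2, 20.3 and 18.6 CPM in WT (-0.82 ± 0.17, adjusted p = 0.00512, and 0.0866 with the spread of the 6 control libraries alone). Neither overlapped. Of 18 clock genes tested these 2 were lower, against 1.24% of all genes tested, and 14 were negative, with a median of -0.18. Because the list was made after these 2 were seen, their count was known beforehand and is no result about the list. Per1, Per2 and Bmal1 stood at -0.35 (adjusted p = 0.0602), 0.59 (adjusted p = 0.302) and -0.09 (adjusted p = 0.922). No source used here gives the hour at which each culture was lysed.

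Several lists held no gene past the threshold, where 1.65% of all genes tested passed. Of 35 cell cycle genes 0 passed by edgeR and 32 were positive. Their median was 0.17, against -0.000995 over all genes tested, with E2f1, which opens S phase, at 0.49 ± 0.15 (adjusted p = 0.086). Of 29 interferon response genes 0 passed, with a median of -0.18 and Rsad2, the antiviral protein viperin, at -0.30 ± 0.09 (adjusted p = 0.0741). No ribosomal protein (30), mitochondrially encoded (13), cholesterol synthesis (22), heat shock and unfolded protein (22), plasma cell (7) or stromal (3) gene passed, the number tested in brackets. All 11 platelet and megakaryocyte markers were negative, with a median of -0.23, and 0 passed. These counts cover list members only. Outside these lists, Ncapd2, a condensin subunit, was called higher. So were Tk1 (adjusted p = 0.18 with WT control replicate 3 left out) and E2f7 (0.112 with TTP-KO control replicate 2 left out), also known from the cell cycle. Genes named here from outside the lists are examples, and other such calls are not named. Samhd1 and Ifi27l2a, known from interferon responses, were called lower. Ifi27l2a stood at -1.09 (adjusted p = 0.0105, and 0.107 with TTP-KO control replicate 3 left out). Alox12, the platelet lipoxygenase, stood at -0.62 (adjusted p = 0.0443, and 0.152 with TTP-KO control replicate 2 left out). At an unadjusted p under 0.05 there were 1810 genes of the 14076 tested. Il4, Il13 and Il6, cytokines that basophils release on activation, stood at 264, 94.2 and 698 CPM in TTP-KO and 265, 96.8 and 684 CPM in WT, each with overlapping libraries.

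Genes next to Zfp36 on its chromosome were read because neighbours of an altered gene are inherited with it. Plekhg2, a guanine nucleotide exchange factor and the tested gene adjacent to Zfp36, had 18.3, 13.2 and 12.0 CPM in TTP-KO, against 8.90, 9.80 and 7.28 CPM in WT. It was higher by 0.74 ± 0.17 (adjusted p = 0.0165), a call that ended with TTP-KO control replicate 1, the highest value, left out (adjusted p = 0.127), and with the spread of the 6 control libraries alone (adjusted p = 0.0678). After TNP-OVA, in other libraries, it averaged 25.4 CPM in TTP-KO and 8.95 CPM in WT at 2 h (1.51 ± 0.17, adjusted p = 1.09e-06), and 19.1 CPM in TTP-KO and 6.17 CPM in WT at 4 h (1.61 ± 0.16, adjusted p = 9.18e-08). Among the 60 tested genes nearest to Zfp36, 30 on each side in the GRCm38 order, Plekhg2 was the 1 that passed in control cells. That is 1.67%, close to the 1.65% of all genes tested, and the median of the 60 was 0.02. Med29, on the other side, stood at 0.37 ± 0.14 (adjusted p = 0.19). The part of the altered allele in the level of Plekhg2 was not tested.

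**Figure D4:**
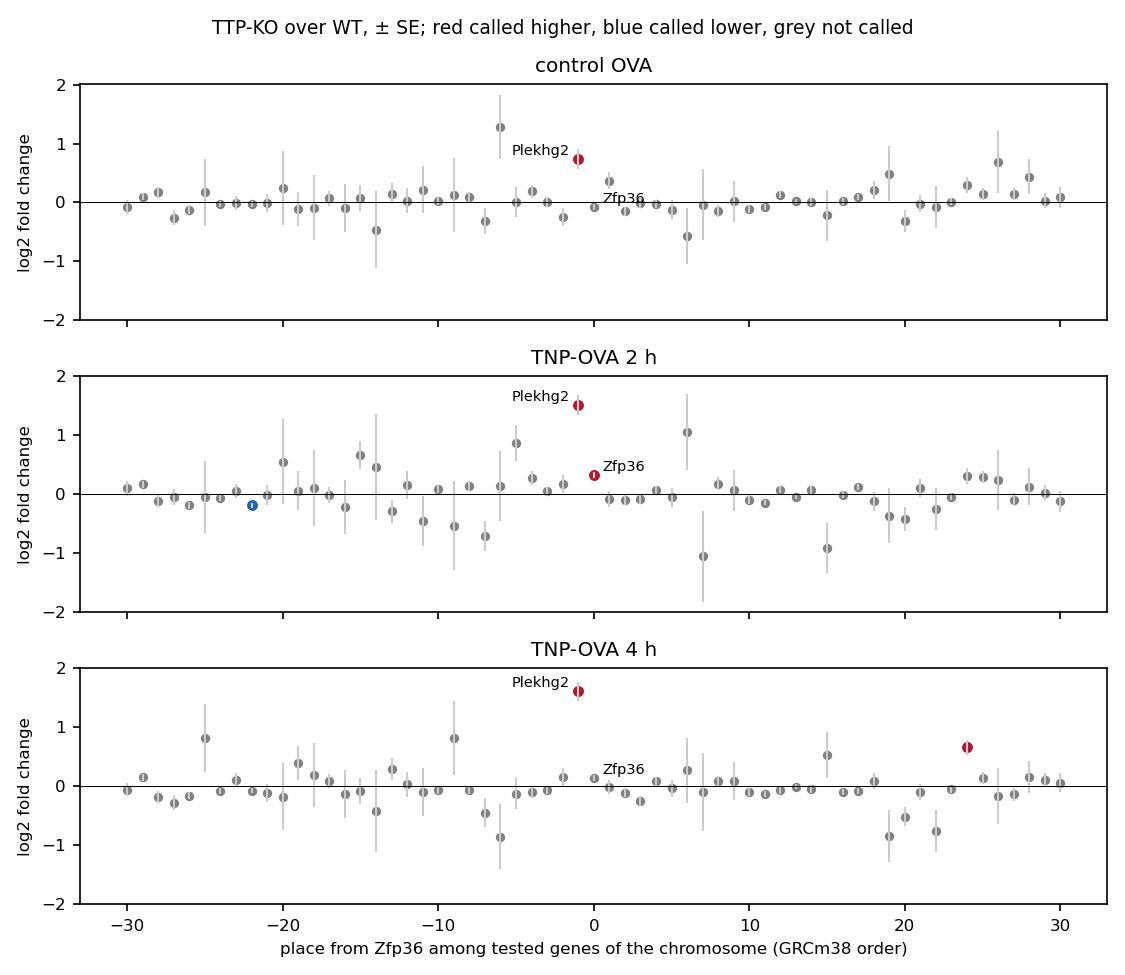
Log2 fold change of TTP-KO over WT with its SE (vertical axes) for Zfp36 and the 60 tested genes around it, by their place in the order of the chromosome (horizontal axis), in control OVA cells and after TNP-OVA for 2 h and 4 h. Red points are higher, blue lower and grey did not pass. Plekhg2, next to Zfp36, is red in all 3 panels.

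The TNP-OVA libraries were read to follow the 232 genes. They helped to set the filter and the estimate of spread behind those calls, and 138 of the 232 were called from the 6 control libraries alone. TTP-KO and WT differed there in 2.79% of genes tested at 2 h and in 5.22% at 4 h. Of the 58 genes higher in control cells, 50 had the same sign after 2 h of TNP-OVA and 29 were called higher there, against 0.909% of all genes called higher at 2 h. After 4 h, 50 had the same sign and 25 were called higher, against 1.83%. Of the 174 lower genes, 162 had the same sign and 76 were called lower at 2 h, against 1.88%, and at 4 h 156 had the same sign and 90 were called lower, against 3.4%. All the libraries of a genotype share that genotype, whatever mice or cultures they came from, and whether a control library and a stimulated library of 1 number came from the same mouse is not stated. Both times called 20 of the higher and 60 of the lower genes, and neither time called 24 and 68.

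H2-Eb1 kept its sign. It averaged 221 CPM in TTP-KO and 335 CPM in WT at 2 h (-0.60 ± 0.05, adjusted p = 4.5e-09), and 199 CPM in TTP-KO and 335 CPM in WT at 4 h (-0.75 ± 0.05, adjusted p = 1.06e-11). Ltf gave 0.80 ± 0.09 after 2 h (adjusted p = 7.13e-07) and 1.04 ± 0.08 after 4 h of antigen (adjusted p = 2e-09), and Tpsb2 gave -0.52 ± 0.06 (adjusted p = 1.63e-06) and -0.81 ± 0.06 (adjusted p = 1.46e-10). For these 3 genes no change of the genotype difference with antigen passed. For Nr1d1 the 2 h value was -0.82 ± 0.13, with an adjusted p of 0.000319, and the 4 h value was -0.86 ± 0.12, with an adjusted p of 1.9e-05. Ccl22 gave -2.20 ± 0.22 at 4 h (adjusted p = 7.52e-08), with 4.58 CPM in TTP-KO and 21.3 CPM in WT, and its change from control did not pass (adjusted p = 0.536). Ciita passed at both times, with -0.59 ± 0.14 after 2 h of antigen, an adjusted p of 0.0127, and -0.72 ± 0.13 after 4 h, an adjusted p of 0.000565.

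The test of the change itself, the difference after TNP-OVA minus that in control cells, called 7 genes at 2 h, 0.0497% of those tested (0.0355% positive and 0.0142% negative), and 97 at 4 h, 0.689% (0.277% positive and 0.412% negative). These counts rested on single libraries: at 2 h there were 4 calls without TTP-KO TNP-OVA 2 h replicate 1, without its replicate 3, or without TTP-KO control replicate 2. At 4 h 46 were called without TTP-KO TNP-OVA 4 h replicate 2, 51 and 52 without WT TNP-OVA 4 h replicates 2 and 3, 56 without TTP-KO control replicate 2 and 59 without WT control replicate 2. Of the genes called in control cells, 3 higher and 13 lower were among them at either time. These genes were picked by the control difference that the change subtracts, so that choice alone leans their changes toward the opposite sign. Il1a stood at 83.7 CPM in TTP-KO and 84.1 CPM in WT at 4 h, and its genotype difference fell by 0.69 on the log2 scale between control and 4 h (adjusted p = 0.000758). Maff also lost its difference, with a change of -0.60 (adjusted p = 0.00897). Fn1, fibronectin, had 31.8, 31.6 and 34.8 CPM in TTP-KO, against 50.4, 45.8 and 46.2 CPM in WT in control cells (-0.53 ± 0.08, adjusted p = 0.00022), and was higher at 4 h, with 91.7 CPM in TTP-KO and 72.4 CPM in WT (0.34 ± 0.07, adjusted p = 0.0031). Bcl2 went the other way at 4 h, with 37.8 CPM in TTP-KO and 47.6 CPM in WT (-0.33 ± 0.08, adjusted p = 0.0135). Fn1 and Bcl2 were the 2 genes called in opposite directions in control cells and at 4 h, and no gene was so called at 2 h.

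**Figure D5:**
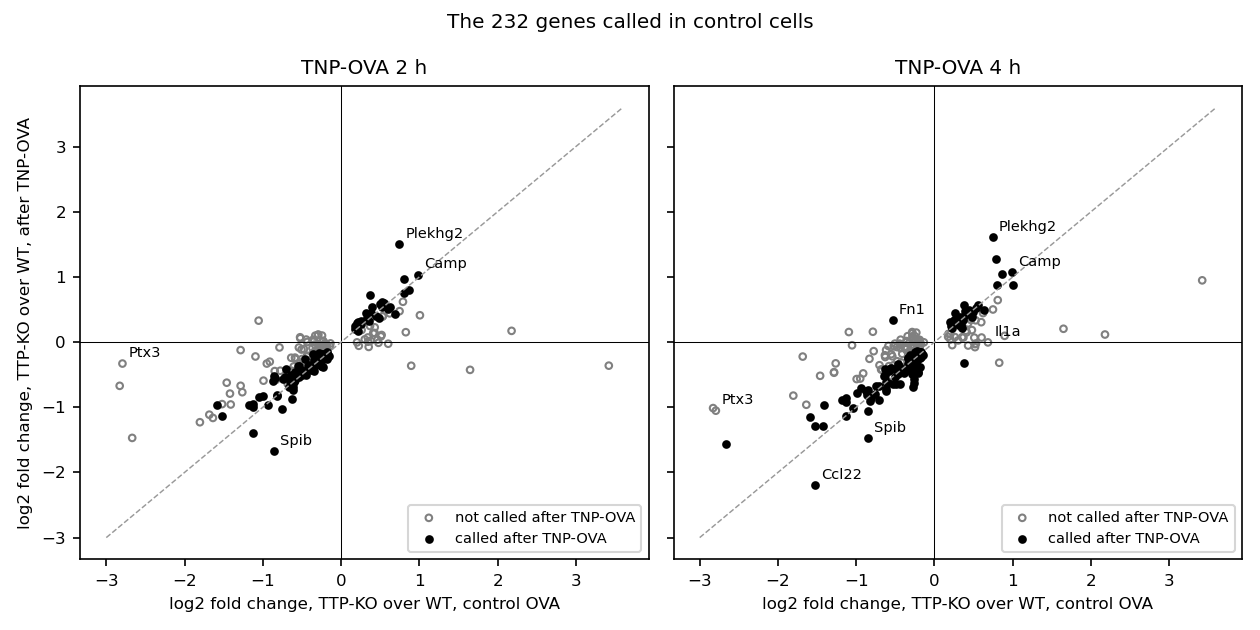
Log2 fold change of TTP-KO over WT after TNP-OVA for 2 h (left) and 4 h (right) on the vertical axes, against that in control OVA cells (horizontal axes), for the 232 genes called in control cells. Filled points passed the test after TNP-OVA, open points did not, and the dashed line marks equal values. Most points lie in the lower left and the upper right, and Fn1 lies in the upper left at 4 h.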

How the data were processed

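Bulk RNA sequencing of 18 mouse basophil libraries, 3 in each of 6 groups, was used. The deposited table gives the authors' estimated counts (expected counts) per gene with no normalization. Listed in the submitters' processing notes are STAR 2.7.10a, RSEM 1.3.1, cutadapt 3.5, R 4.4.0, R 4.4.1 and the build GRCm39. No source used here gives the strand setting, so overlapping genes are uncertain, as are near copies. The control columns carry the word unstim and were matched to the control OVA samples by genotype and number.

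Estimated counts were rounded. In edgeR 4.0.16 under R 4.3.3, filterByExpr on the 6 groups removed low genes, TMM set the library sizes, also for CPM, and a robust quasi-likelihood fit of all 18 libraries estimated each group's mean (12 residual degrees of freedom). Benjamini-Hochberg adjustment covered the 14076 genes tested, with a threshold of 0.05. An exact permutation of 3 against 3 libraries cannot give a p below 0.1. The fit was tested on simulated counts. The alternatives were DESeq2 1.42.0, RLE scaling, no filter, a mean CPM of at least 4, the 6 control libraries alone, the replicate number as a block, and each library left out.

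The comparison, the gene lists and the naming rule were chosen with earlier results of these data known. The rule took the 15 largest changes each way with a mean CPM of at least 4 and no overlap, the 8 largest changes in CPM each way, up to 4 called members of each list (or the 2 with the smallest p where none passed) and Zfp36. Other list members, Mmp14, Med29, Ncapd2, Tk1, E2f7, Samhd1 and the genes whose difference changed with antigen were named after their values were seen. Gene order and sequences come from GRCm38 and were not mixed with coordinates of the files' build, so a rule on genes within 10 Mb of Zfp36 was replaced by gene order. Some genes counted in the lists are not reported here by name.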

Additional observations from a re-analysis of the deposited data

Results flagged for a closer look

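For 16 genes called in control cells the genotype difference itself differed between control OVA and TNP-OVA, by the edgeR test of that change. The values are the log2 difference after TNP-OVA minus that in control cells. Picking the genes by their control difference leans these values toward the opposite sign. At 2 h they were 0.43 for Rgs1, a brake on G protein signalling (adjusted p = 0.000804), and 0.34 for Phf20l1 (adjusted p = 0.0327).

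At 4 h the positive values were 0.88 for Fn1 (adjusted p = 3.85e-05), 0.53 for S1pr1 (adjusted p = 0.0488), 0.44 for Dgat1 (adjusted p = 0.00955), 0.42 for Sdc4 (adjusted p = 0.00133), 0.39 for Mmp12 (adjusted p = 0.0488), 0.38 for Bod1l (adjusted p = 0.022), 0.37 for Lpl, lipoprotein lipase (adjusted p = 0.00321), 0.32 for Bcl2l11, which encodes the death-promoting protein BIM (adjusted p = 0.0223), 0.31 for Rgs1 (adjusted p = 0.0129) and 0.27 for Phf20l1 (adjusted p = 0.0488). The negative values at 4 h were -0.70 for Bcl2 (adjusted p = 0.00199), -0.69 for Il1a (adjusted p = 0.000758), -0.60 for Maff (adjusted p = 0.00897), -0.41 for Glipr2 (adjusted p = 0.0398), -0.38 for Upp1 (adjusted p = 0.0223) and -0.24 for Ccl9 (adjusted p = 0.0078).

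The value of Rgs1 at 2 h, and those of Fn1, Dgat1, Sdc4, Lpl, Bcl2, Il1a, Maff and Ccl9 at 4 h, stayed past the threshold without each of the 12 libraries concerned. The other 9 values did not. The highest adjusted p without 1 library was 0.0621 for Rgs1 at 4 h, without TTP-KO TNP-OVA 4 h replicate 2, and 0.186 for Phf20l1 at 2 h, without WT TNP-OVA 2 h replicate 1. Without TTP-KO control replicate 2 it was 0.151 for Phf20l1 at 4 h and 0.0943 for both Bod1l and Upp1. Without TTP-KO control replicate 3 it was 0.0901 for Bcl2l11 and 0.127 for Glipr2. For Mmp12 it was 0.162, without WT control replicate 1, and for S1pr1 0.147, without WT TNP-OVA 4 h replicate 3.

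Some of the control calls themselves ended with 1 control library left out. The highest adjusted p was 0.0895 for Dgat1 and 0.101 for Upp1, both without TTP-KO control replicate 1, and 0.173 for Bod1l and 0.212 for Glipr2, both without TTP-KO control replicate 2. That of Bcl2 is given above.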

How the results depend on the processing

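The 232 calls in control cells kept their sign without each of the 6 control libraries in turn, and 91 of them, 22 higher and 69 lower, passed each time. Leaving out 1 library gave 145 to 190 calls, the lowest without TTP-KO control replicate 3. There were 149 calls with the 6 control libraries alone and 399 with no filter on low counts, and 263 to 303 with RLE scaling, DESeq2 or the stricter filter. Of the 80 called genes that the naming rule took, 25 lost their call without some single library, as did 12 of the 30 taken by size of change. Of the genes described above, H2-DMb1 and Icam1 lost it in 1 of the 6 such fits, Hdc, Ifi27l2a, Plekhg2 and Dgat1 in 2, and Bcl2 and Csf2rb2 in 3. H2-DMa, Alox12, Cxcl1, Ctsk, E2f7, Glipr2, Ier3, Ighd, Spib, Tk1 and Upp1 lost it in 4, and Bod1l, Cd14 and Tnfaip3 in 5. The control calls that passed in the same direction numbered 105 at 2 h (161 with no filter, 80 to 104 without 1 library) and 115 at 4 h (82 to 102 without 1 library). Changes with antigen numbered 7 at 2 h (31 with DESeq2, 55 with no filter, 4 to 8 without 1 library) and 97 at 4 h (188 with DESeq2, 259 with no filter, 46 to 133 without 1 library). The cause of these shifts was not tested. Same-numbered control libraries of the genotypes did not deviate together, with correlations of 0.0142, -0.00059 and -0.00543 across genes, so these numbers were not taken to pair the genotypes. Pairing of control with TNP-OVA libraries was not tested. With the replicate number as a block there were 257 control calls, 124 and 130 that passed again at 2 h and 4 h, and 8 and 89 changes with antigen. Depth limits genes of a few CPM, such as Ccr7, whose log2 fold change has a standard error of 0.54.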
